A study of Mus musculus with 8 samples.

Results

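Asns, Psat1, Phgdh, Psph, Shmt2, Chac1, Trib3, Ddit3, Atf4 and Sesn2 are genes of asparagine, serine and glycine synthesis and of the stress response run by the transcription factor ATF4. They were described in 2 mouse pre-B lines and after transfection of miR-125b. The genes were chosen by their log2 differences between the lines and after miR-125b in these same arrays, so their values in both contrasts are a description. Counts of these genes past a threshold in them stand beside the share of all genes, and nothing is read from them. All 10 genes were found on the array by the gene name in the scanner files, with 14 of its 55681 probes, and all 10 passed the intensity filter that left 18791 genes. Psat1, Phgdh, Psph and Atf4 had 2 probes each. The lines were '18-81', a pre-B line that the Abelson murine leukaemia virus transformed, and 70Z/3, a leukaemic pre-B lymphoblast line. Each line received 10 nM of a synthetic duplex, either pre-miR-125b or the control called miR-Neg, by lipid transfection. RNA was taken 48 h later, after a medium change at 8 h. The groups were thus '18-81' with miR-125b, '18-81' with miR-Neg, 70Z/3 with miR-125b and 70Z/3 with miR-Neg, with 2 arrays each. The arrays of a group come from 2 independent experiments, whose number is the replicate number, and 8 arrays in all limit the precision of every value. The stated purpose was to find the targets of miR-125b. Untransfected cells were not analysed here, the array does not read the mature microRNA, and each line is 1 leukaemia.

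Asns makes asparagine from aspartate and glutamine. Phgdh, Psat1 and Psph carry out the successive steps from a glycolytic intermediate to serine, and Shmt2 turns serine into glycine and a one-carbon unit in mitochondria. When amino acids run short or unfolded proteins gather in the endoplasmic reticulum, kinases phosphorylate the initiation factor eIF2alpha, most translation slows, and ATF4 is made from its existing mRNA. ATF4 then switches on amino acid synthesis genes and also Ddit3 (the factor CHOP), Trib3 (a pseudokinase that dampens ATF4 and Akt signalling), Chac1 (which degrades glutathione) and Sesn2 (a leucine sensor that restrains mTORC1). Because ATF4 is set largely by translation, its mRNA level need not follow its activity. Lymphoblastic leukaemias with little ASNS are known to need asparagine from outside, which is the basis of treatment with asparaginase.

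The mature microRNA that the tested duplex is named for is shown first, with its seed (bases 2 to 8) in capitals, as RefSeq gives it for chr9:41581940-41581961 and chr16:77646279-77646300 of GRCm38.p6, plus strand.
miR-125b-5p: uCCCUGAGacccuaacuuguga
The reverse complement of the seed, CTCAGGG, was in 0 of the 14 probes of these genes and in 0.44% of all probes, and the genes' transcripts outside the probes were not searched. The RefSeq windows upstream of Asns and Chac1 are printed because these genes carry the largest differences between the lines. Each is the 250 bases before the start site, 5′ to 3′ on the gene's strand. Capitals mark a match to TGATGNAA, the core of the response element shared by C/EBP and ATF factors, searched on both strands.
Asns, chr6:7693210-7693459 of GRCm38.p6, minus strand: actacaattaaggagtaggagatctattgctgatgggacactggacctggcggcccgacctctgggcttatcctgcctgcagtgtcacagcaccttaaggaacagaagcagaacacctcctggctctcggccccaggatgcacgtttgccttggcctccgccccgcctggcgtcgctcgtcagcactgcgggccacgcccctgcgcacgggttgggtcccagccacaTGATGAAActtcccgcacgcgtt
Chac1, chr2:119350992-119351241 of GRCm38.p6, plus strand: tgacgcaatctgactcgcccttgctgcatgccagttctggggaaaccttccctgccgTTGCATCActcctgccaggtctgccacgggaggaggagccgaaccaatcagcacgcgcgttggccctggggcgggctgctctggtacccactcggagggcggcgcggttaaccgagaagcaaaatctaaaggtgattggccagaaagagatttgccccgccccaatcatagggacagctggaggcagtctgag
The Asns match, TGATGAAA, lies at −23 to −16 from the start site. The Chac1 match lies at −193 to −186 on the opposite strand and reads TTGCATCA, the reverse complement of TGATGCAA. TGATGCAA is itself 1 form of TGATGNAA, so both searches find this match. TGATGNAA was in the windows of 2 of the 10 genes and in 3.45% of 32851 mouse windows of the same length. TGATGCAA was in the window of Chac1 and in 0.79% of the mouse windows. The motif was chosen with the values known, and the windows of the other 8 genes hold no match to these letters.

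Values below are log2 intensities relative to the array's own 75th percentile, which ranged from 337.7 to 725.1 intensity units and was lowest for replicate 2 of 70Z/3 with miR-Neg. On each array 38.0 to 45.1% of the probes exceeded background clearly, by the scanner software's call, and no spot was saturated. Of 10 markers of B-cell precursors, 9 were above background on all 4 arrays of both lines, and Rag1 was on none. Of 6 T-cell markers, 5 were above background on all '18-81' arrays and 4 on all 70Z/3 arrays, whereas Cd8a was on none. Of 6 myeloid markers, 2 were above it throughout in either line, and Adgre1 was not above it on any array. Of 4 stromal markers, 1 was above it throughout in either line, and Pdgfrb on none. Of 3 erythroid markers, 1 was above it on all arrays of both lines, 1 on no '18-81' array and all 4 of the 70Z/3 arrays, and 1 on none. The part of other cell types in the differences below was not tested. A lower level can mean fewer cells that express a gene or less RNA per cell, which bulk RNA cannot tell apart.

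Asns and Chac1 differed between the lines in opposite directions, each with a strong signal in one line and none above background in the other. The probe for Asns (chr6:7625171-7625228 in mm9, minus strand) read −6.65 and −6.18 in '18-81' with miR-125b, −6.58 and −6.17 in '18-81' with miR-Neg, 7.74 and 8.38 in 70Z/3 with miR-125b, and 8.12 and 8.60 in 70Z/3 with miR-Neg. It was well above background on 0 of 4 arrays of '18-81' and on 4 of 4 arrays of 70Z/3. In raw intensity it read 7.19 to 7.98 units in '18-81' and 131115 to 167997 units in 70Z/3. Asns was thus at least 6346-fold lower in '18-81', where the probe averaged −6.40 ± 0.26, against 8.21 ± 0.37 in 70Z/3 (SD, n = 4 arrays each). This bound replaces each array's level in the dim line by the lowest signal that was still well above background there, which averaged −4.42 in '18-81'. It is 12.63 in log2 and holds only for the background handling used here. With another background correction, normexp, which lifts dim values, the fitted difference was −11.06, smaller than the bound. Other folds given as at least were computed in the same way as this bound. Only 1 Asns probe was on the array, so no second probe could be compared.

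Chac1 (probe at chr2:119179990-119180049 in mm9, plus strand) showed the opposite pattern. It read 5.97 and 5.04 in '18-81' with miR-125b, 5.74 and 4.67 in '18-81' with miR-Neg, −6.78 and −6.37 in 70Z/3 with miR-125b, and −6.30 and −5.37 in 70Z/3 with miR-Neg. It was above background on 4 of 4 arrays of '18-81' and on 0 of 4 arrays of 70Z/3. Chac1 was at least 921-fold higher in '18-81', where it averaged 5.35 ± 0.61, against −6.21 ± 0.60 in 70Z/3 (SD, n = 4 arrays each). This bound is 9.85 in log2 and also depends on the background handling, as the fitted difference with normexp was 8.15. As for Asns, 1 probe carries this result.

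**Figure D1:**
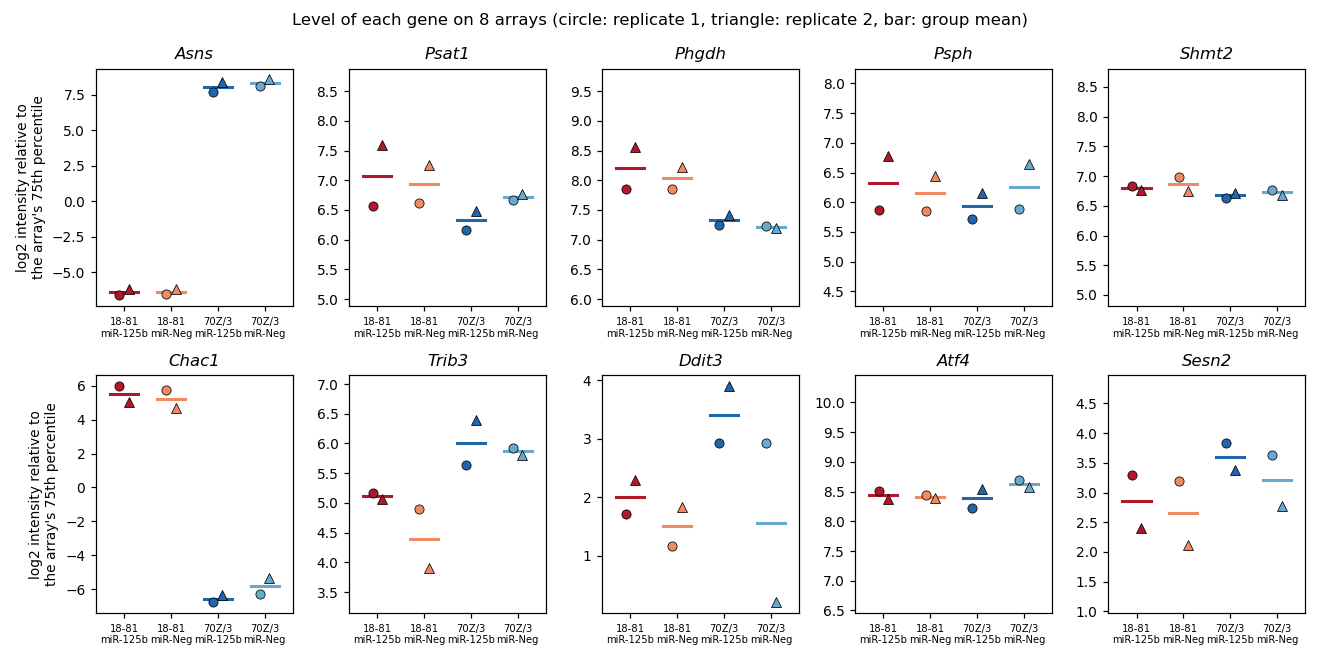
Level of each of the 10 genes on the 8 arrays (vertical axes: log2 intensity relative to the array's 75th percentile, with a range of its own for each gene; horizontal axes: group; circle, replicate 1; triangle, replicate 2; bar, mean of the group). Asns lies between 7.74 and 8.60 in 70Z/3 and below background in '18-81', Chac1 lies between 4.67 and 5.97 in '18-81' and below background in 70Z/3, and the other 8 genes are above background on every array.

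The serine synthesis genes were well above background in both lines, and Phgdh differed most between them. Phgdh, the first enzyme of the route, read 7.85 and 8.56 in '18-81' with miR-125b, 7.86 and 8.23 in '18-81' with miR-Neg, 7.25 and 7.42 in 70Z/3 with miR-125b, and 7.23 and 7.20 in 70Z/3 with miR-Neg. Every '18-81' array was above every 70Z/3 array. The difference was 0.85 ± 0.23 on the log2 scale (limma standard error), or 1.80-fold, and its second probe gave 0.71 ± 0.23, also without overlap. The Phgdh probes lie 88 bases apart (chr3:98117215-98117274 and chr3:98117303-98117361 in mm9, minus strand).

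Psat1, which makes phosphoserine, ranged from 6.57 to 7.59 in '18-81' and from 6.17 to 6.77 in 70Z/3. The lines overlapped, and the differences of its 2 probes were 0.48 ± 0.28 and 0.65 ± 0.23. Psph, the phosphatase that releases serine, ranged from 5.86 to 6.78 in '18-81' and from 5.72 to 6.64 in 70Z/3, a difference of 0.14 ± 0.30, and its second probe gave 0.25 ± 0.23. Shmt2 ranged from 6.75 to 6.99 in '18-81' and from 6.63 to 6.76 in 70Z/3, a difference of 0.14 ± 0.18. For the first probe of Psph and for Shmt2 the difference was smaller than its standard error, with a single 70Z/3 array above the lowest '18-81' array in the case of Shmt2.

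Among the ATF4 stress genes other than Chac1, Trib3 stood apart between the lines. Trib3 read 5.17 and 5.07 in '18-81' with miR-125b, 4.90 and 3.90 in '18-81' with miR-Neg, 5.63 and 6.39 in 70Z/3 with miR-125b, and 5.93 and 5.81 in 70Z/3 with miR-Neg. All '18-81' arrays lay below all 70Z/3 arrays, with a difference of −1.18 ± 0.29, or 2.27-fold. Between the miR-125b arrays alone it was −0.89, where it did not pass an adjusted p of 0.05 (limma), and between the miR-Neg arrays alone −1.48, where it did. Its probe lies at chr2:152163161-152163220 in mm9, on the minus strand.

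Sesn2 read 3.30 and 2.41 in '18-81' with miR-125b, 3.20 and 2.11 in '18-81' with miR-Neg, 3.83 and 3.38 in 70Z/3 with miR-125b, and 3.63 and 2.78 in 70Z/3 with miR-Neg. The lines overlapped over all arrays, but within each experiment both '18-81' arrays were below both 70Z/3 arrays. The difference was −0.65 ± 0.35. Ddit3 differed by −0.74 ± 0.57, and its 70Z/3 arrays spread from 0.20 to 3.90, against 1.17 to 2.29 in '18-81'. Atf4 itself was close in the lines. Its brighter probe ranged from 8.38 to 8.51 in '18-81' and from 8.22 to 8.69 in 70Z/3, a difference of −0.08 ± 0.19, and its second probe gave 0.08 as the difference.

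Of the 10 genes, 4 passed the threshold between the lines (limma, adjusted p under 0.05): Chac1 and Phgdh as higher and Asns and Trib3 as lower in '18-81'. Over all 18791 genes 31.7% passed, 15.5% as higher and 16.2% as lower, and nothing is read from the count because this contrast chose the genes. The arrays of the lines did not overlap for the same 4 of the 10 genes and for 36.8% of all genes, 18.5% as higher and 18.2% as lower. The median difference of the 10 genes was 0.03, against 0.02 for all genes. The experiments pair the arrays, and with the replicate number as a block Sesn2 passed as well, which made 5 of 10 against 48.1% of all genes. Leaving out any 1 array left between 2 and 4 of the genes past the threshold, with Asns and Chac1 in each case. Without replicate 2 of 70Z/3 with miR-125b Trib3 was at −0.99 and did not pass, and Phgdh at 0.89 did not either. Phgdh also failed without replicate 1 of that group (0.81), without replicate 2 of 70Z/3 with miR-Neg (0.84), and without replicate 2 of '18-81' with miR-Neg (0.76) or with miR-125b (0.67). Without the intensity filter, or within the arrays of either duplex alone, Phgdh did not pass. Among the single arrays left out, Ddit3 passed only without replicate 2 of 70Z/3 with miR-Neg.

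Other genes of the same pathways were read from lists by function, again beside the 31.7% of all genes that passed (15.5% as higher, 16.2% as lower). Of 14 amino acid transporters, 6 were higher and 1 was lower in '18-81'. Slc7a3, a carrier of arginine and lysine, ranged from 4.54 to 6.02 in '18-81' and was not above background in 70Z/3, so it was at least 735-fold higher. Slc43a1, a carrier of large neutral amino acids, was at least 45.8-fold higher and Slc36a4 at least 7.64-fold higher on the same basis. Slc1a4, which carries alanine, serine and cysteine, was the lower one, at −0.94 ± 0.26 (limma, adjusted p = 0.0263).

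Of 20 cytosolic aminoacyl tRNA synthetases, which load amino acids onto tRNA, 4 were higher and 2 lower. Hars (1.24 ± 0.18), Lars (1.01 ± 0.27) and Qars (0.66 ± 0.19) were higher in '18-81', while Kars (−1.29 ± 0.22) and Dars (−0.96 ± 0.29) were lower. The list thus held differences in both directions and its median was 0.22.

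Of 23 other ATF4 partners and targets, 17 could be tested, and 6 of these were higher and 2 lower in '18-81'. Nupr1, a stress-induced chromatin protein, ranged from 5.77 to 5.97 in '18-81' and from 0.58 to 3.84 in 70Z/3, a difference of 3.55 ± 0.42. Cth, which makes cysteine from cystathionine, was higher by 3.14 ± 0.26, and the hormone gene Fgf21 was at least 4.27-fold higher. The AP-1 repressor Jdp2 was above background on no '18-81' array and was at least 367-fold lower. Mthfd2, the mitochondrial enzyme that uses the one-carbon units from Shmt2, ranged from 2.83 to 3.57 in '18-81' and from 4.63 to 5.02 in 70Z/3, a difference of −1.73 ± 0.19. The list held differences in both directions, while Atf4 itself was at −0.08 ± 0.19.

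The 16 tested of 20 one-carbon and glycine genes included 1 higher and 3 lower in '18-81'. The higher one was Mthfd2l, a second mitochondrial enzyme of the Mthfd2 type, at least 78.5-fold, as it was not above background in 70Z/3. Mtr (−0.91 ± 0.23), the methionine synthase, and Atic (−0.90 ± 0.21), of purine synthesis, were lower beside Mthfd2. Of 20 glutamine, aspartate and proline genes 19 were tested, with 5 higher and 2 lower. Gls2, a glutaminase, was at least 72.6-fold lower in '18-81', where it was not above background. Ass1, which joins aspartate to citrulline, was at −3.87 ± 0.28, Got2, which makes aspartate in mitochondria, at 1.07 ± 0.19, and Asrgl1, an asparaginase-like enzyme, at 0.96 ± 0.29. Prodh, which degrades proline, was at least 3.01-fold higher.

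Of 15 genes for the eIF2alpha kinases, phosphatase subunits and initiation factors, 0 were higher and 3 lower, and 4 had an unadjusted p under 0.05. They included the endoplasmic reticulum kinase Eif2ak3 (−1.02 ± 0.23) and the phosphatase subunit Ppp1r15b (−0.59 ± 0.19). Of 16 sestrin and nutrient sensing genes 15 were tested, with 4 higher and 2 lower. Castor2 (4.08 ± 0.20) and Castor1 (3.11 ± 0.29), relatives that act in arginine sensing, and Sesn3 (1.30 ± 0.31) were higher, while Sesn1 (−0.95 ± 0.19) and the GTPase Rragd (−1.50 ± 0.26) were lower. Castor2 was above background on 3 and Castor1 on 1 of the 4 arrays of 70Z/3, and Rragd on 2 of the 4 of '18-81', so these differences rest partly on dim values. Sesn1 and Sesn3 thus differed in opposite directions. Of 7 other tribbles and glutathione genes 2 were higher and 0 lower. Trib2, a relative of Trib3, was at 2.78 ± 0.23 and Gclm, of glutathione synthesis, at 1.41 ± 0.24. Of 14 chaperones of the other stress branches 2 were higher and 0 lower, Hsp90b1 at 0.92 ± 0.22 and Dnajb9 at 0.82 ± 0.20. With quantile normalization Hsp90b1 was at 0.89 and did not pass (adjusted p = 0.0711).

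**Figure D2:**
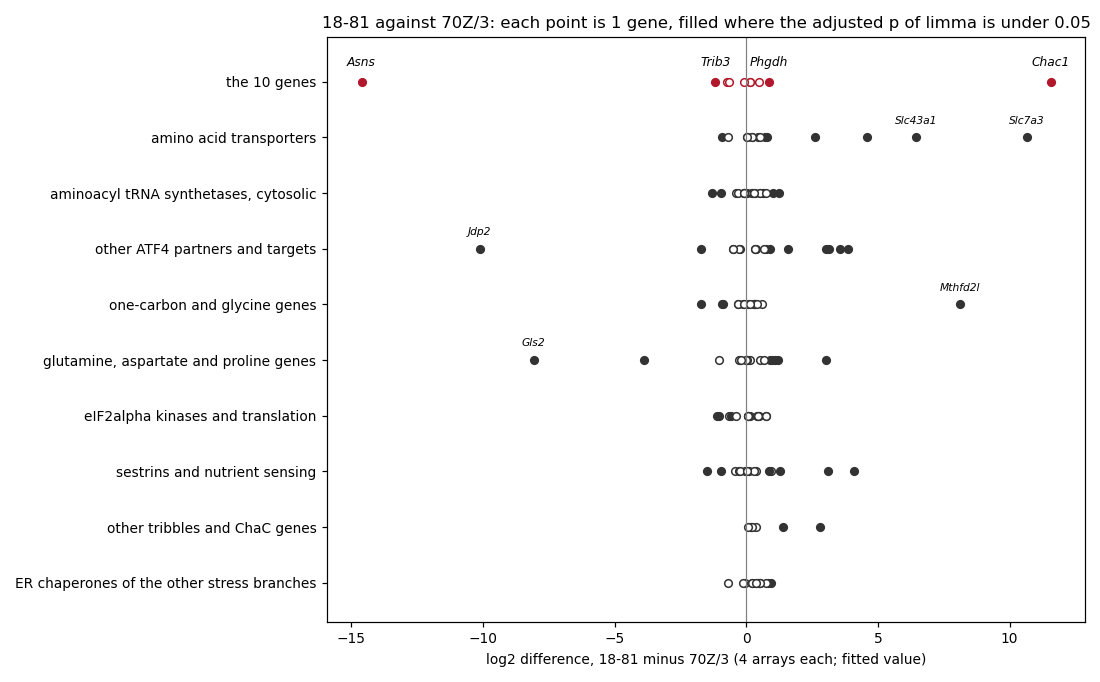
Fitted log2 difference between '18-81' and 70Z/3 (horizontal axis, 4 arrays each) for the 10 genes and for the tested members of 9 lists (rows); filled points have a limma adjusted p under 0.05, which 31.7% of all genes reached. Points beyond about 4 in either direction belong to genes that were not above background in 1 line, whose fitted difference is not a measured fold, except Castor2 at 4.08.

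After miR-125b, 0 of the 10 genes passed the threshold in 70Z/3, and 0 had an unadjusted p under 0.05 (limma without a block). The smallest was that of Ddit3, 0.0506. The background in the same fit was 0.0% of all genes by limma's adjusted p and 5.88% (1104 genes) at an unadjusted p under 0.05. With the replicate number as a block, 0 of the 9 genes above background there passed, and 0 of all genes. Their unadjusted p in that fit is not given here. The median of all genes was −0.13, or −0.01 with quantile normalization, and that of the 9 of the 10 genes above background there −0.05. Ddit3 had the largest difference of the 9 genes above background there, 1.85 ± 0.80. It read 2.92 and 3.90 with miR-125b and 2.92 and 0.20 with miR-Neg, so that experiment 1 gave a difference of 0.00 and experiment 2 one of 3.69. The value of 0.20 comes from the dimmest array, and without that array the difference was 0.49, against 3.21 without replicate 1 of miR-Neg.

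Sesn2 was at 0.40 ± 0.50 in 70Z/3, with 0.21 and 0.60 in the experiments, and Trib3 at 0.14 ± 0.40, with −0.30 and 0.58. Asns, which could be compared in this line, was at −0.30 ± 0.36, with −0.38 and −0.22. Computed from the authors' series table it was 0.11. Psat1 was at −0.39 ± 0.40, with −0.50 and −0.29 in the experiments, and Psph at −0.32 ± 0.43, with −0.17 and −0.48. With quantile normalization Psat1 was at −0.05 and Psph at −0.01, and in the series table they were at −0.02 and 0.02. The second probe of Psph was at 0.14, the opposite sign, and the mean of its probes at −0.09. For Asns, Psat1 and the first probe of Psph the standard errors of the fit without a block were as large as the differences. With the replicate number as a block these 3 did not pass either (limma, adjusted p = 0.324, 0.387 and 0.342 in that order). Phgdh (0.12 ± 0.32), Shmt2 (−0.05 ± 0.26) and Atf4 (−0.24 ± 0.27) were within their errors with the percentile scaling. Phgdh was at 0.48 with quantile normalization and 0.50 in the series table, beyond that error, and Shmt2 changed sign to 0.30 and 0.32. Atf4 changed sign to 0.09 with quantile normalization and 0.16 in the series table, and its second probe gave 0.27. No difference is given for Chac1, which was below background with either duplex.

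In '18-81', 0 of the 10 genes passed the threshold after miR-125b and 0 had an unadjusted p under 0.05 (limma without a block). The background was 0.0% of all genes, and 1.22% (230 genes) for the unadjusted p. The median of the 9 above background there was 0.18, with all genes at 0.03, and Sesn2 was at 0.20 ± 0.50. Trib3 had the largest difference, 0.72 ± 0.40, with 0.28 in experiment 1 and 1.17 in experiment 2. Its lowest value of all 8 arrays, 3.90, was that of replicate 2 with miR-Neg, and without that array the difference was 0.23.

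Ddit3 was at 0.50 ± 0.80 in '18-81', with 0.54 and 0.46 in the experiments. Chac1, which is above background in this line, was at 0.30 ± 0.51, with 0.23 and 0.37. Psat1 (0.15 ± 0.40), Phgdh (0.15 ± 0.32) and Psph (0.18 ± 0.43) were smaller than their errors, as were Atf4 at 0.03 and Shmt2 at −0.07. No difference is given for Asns. The 2 duplex contrasts share no arrays, and the test of the difference between them ('18-81' minus 70Z/3) called 0 of the 10 genes and 0.0% of all genes (limma), with 3.22% of all genes and 0 of the 10 at an unadjusted p under 0.05.

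**Figure D3:**
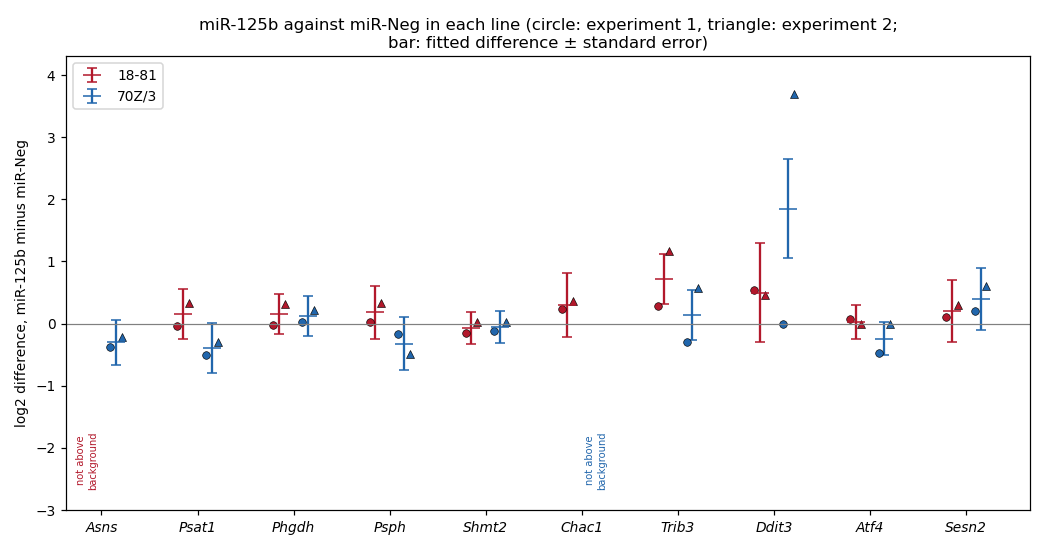
Difference between miR-125b and miR-Neg (vertical axis, log2) for each gene in '18-81' and 70Z/3; circles are experiment 1, triangles experiment 2, and bars the fitted difference ± limma standard error. Ddit3 in 70Z/3 has differences of 0.00 and 3.69 in the experiments, and Asns in '18-81' and Chac1 in 70Z/3 were not above background.

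Among the listed pathway genes, 0 passed the adjusted threshold in either line after miR-125b (limma), and in '18-81' 0 had an unadjusted p under 0.05. In 70Z/3, 5 of 137 entries over all lists had an unadjusted p under 0.05, or 3.65% against 5.88% of all genes, 3 of them among the ATF4 targets. Aldh18a1 stood in a pair of lists. Ero1a, an oxidase of the endoplasmic reticulum, read 0.94 and 2.38 with miR-125b and 0.16 and −0.46 with miR-Neg, a difference of 1.81 ± 0.47 (limma, adjusted p = 0.757). Nupr1 read 2.52 and 3.84 with miR-125b and 2.22 and 0.58 with miR-Neg, a difference of 1.78 ± 0.59 (limma, adjusted p = 0.761). Aldh18a1, the first enzyme of proline synthesis, was at 1.01 ± 0.43, and Castor1, above background on 1 of 4 arrays of this line, at 1.13 ± 0.40. For Ero1a, Nupr1 and Aldh18a1 the lowest value in this line (−0.46, 0.58 and 2.78) was that of replicate 2 with miR-Neg, the dimmest array. Their differences without the dimmest array are not given here. In each of the 4 genes, both arrays with miR-125b were above both with miR-Neg, as for 14.9% of all genes. The 4 genes were picked by their p in this same contrast, so nothing is read from this.

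The contrast of experiment 2 with experiment 1 had no part in choosing the genes. The replicate number also gives the row of the slide, so experiment and slide row cannot be told apart. In the fit with group and replicate number as terms, 3 of the 10 genes passed, against 26.0% of all genes (20.0% as higher and 6.07% as lower in experiment 2). With quantile normalization 10.5% of all genes passed, 5.0% as higher and 5.52% as lower. The median of all genes was 0.21 with the percentile scaling and 0.04 with quantile normalization. Sesn2 was lower in experiment 2 in all 4 groups, by −0.90 in '18-81' with miR-125b, −1.09 in '18-81' with miR-Neg, −0.45 in 70Z/3 with miR-125b and −0.85 in 70Z/3 with miR-Neg. A fall in all 4 groups was seen in 12.4% of all genes, and a rise in all 4 in 38.1%. The fitted difference was −0.82 ± 0.15 (limma, adjusted p = 0.0271), and −1.01 with quantile normalization (adjusted p = 0.0334). Leaving out single arrays gave −0.73 to −0.95 with adjusted p between 0.0423 and 0.108, and the difference was −0.99 within '18-81' (adjusted p = 0.0652) and −0.65 within 70Z/3 (adjusted p = 0.161).

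Psph was higher in experiment 2 in all 4 groups, with a fitted difference of 0.67 ± 0.13 (limma, adjusted p = 0.0278). With quantile normalization it was 0.25 and no longer passed (limma, adjusted p = 0.181), and within lines it was 0.74 in '18-81' (adjusted p = 0.086) and 0.60 in 70Z/3 (adjusted p = 0.161). The second probe of Psph was at 0.36 ± 0.13 and did not pass (limma over probes, adjusted p = 0.0907). Asns was at 0.50 ± 0.12 (limma, adjusted p = 0.0331), a value that includes the '18-81' arrays below background, and at 0.06 with quantile normalization (adjusted p = 0.729). In 70Z/3, where it was measured, it was at 0.56 (adjusted p = 0.161). Asns did not pass when any 1 array was left out (limma, adjusted p from 0.0647 to 0.121). Psph passed only when the array left out was one of 70Z/3 with miR-125b (adjusted p from 0.0432 to 0.11).

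Psat1 was at 0.52 ± 0.18 (limma, adjusted p = 0.0794) and Phgdh at 0.31 ± 0.16 (adjusted p = 0.189). With quantile normalization they were at 0.06 and −0.17. Shmt2, Trib3, Ddit3, Chac1 and the brighter probe of Atf4 lay between −0.16 and 0.01 with the percentile scaling. With quantile normalization Shmt2 was at −0.52, Trib3 at −0.49, Ddit3 at −0.23, Chac1 at −0.65 and Atf4 at −0.47. None of these passed (limma, adjusted p from 0.0546 to 0.823). Ddit3 was at −0.87 within 70Z/3, from 0.98 with miR-125b and −2.71 with miR-Neg, and at 0.62 within '18-81'. Chac1 was lower in experiment 2 in '18-81', where it was measured, by −0.93 with miR-125b and −1.07 with miR-Neg. Of the 9 lists, 7 held genes past the threshold in both directions, while the transporters had 1 higher and 0 lower and the tribbles and glutathione genes 2 higher and 0 lower. The endoplasmic reticulum chaperone Hyou1 was at −1.25 ± 0.23, the autophagy receptor Sqstm1 at −1.53 ± 0.13, the haem-regulated eIF2alpha kinase Eif2ak1 at −1.22 ± 0.16 and the phosphatase subunit Ppp1r15a, itself an ATF4 target, at −0.85 ± 0.19, while Xbp1, of the second stress branch, was at 0.88 ± 0.13 and Chac2, the relative of Chac1, at 1.00 ± 0.18 (limma, adjusted p from 0.0265 to 0.0318). These 6 genes also passed with quantile normalization (adjusted p from 0.0328 to 0.048), but leaving out single arrays left 0 to 3253 of all genes past the threshold. Of the other listed genes picked by their p, Mars1 (−0.86), Asl (−0.82) and Nprl3 (−0.56) were lower. Dars (0.62), Slc25a32 (0.97) and Rheb (0.8) were higher, and both sets passed with either normalization. Slc1a4, Mthfd2l, Asnsd1 and Trib1 passed with the percentile scaling only, and Slc7a6 with neither. The fit of Mthfd2l includes the 70Z/3 arrays, on which it was not above background.

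**Figure D4:**
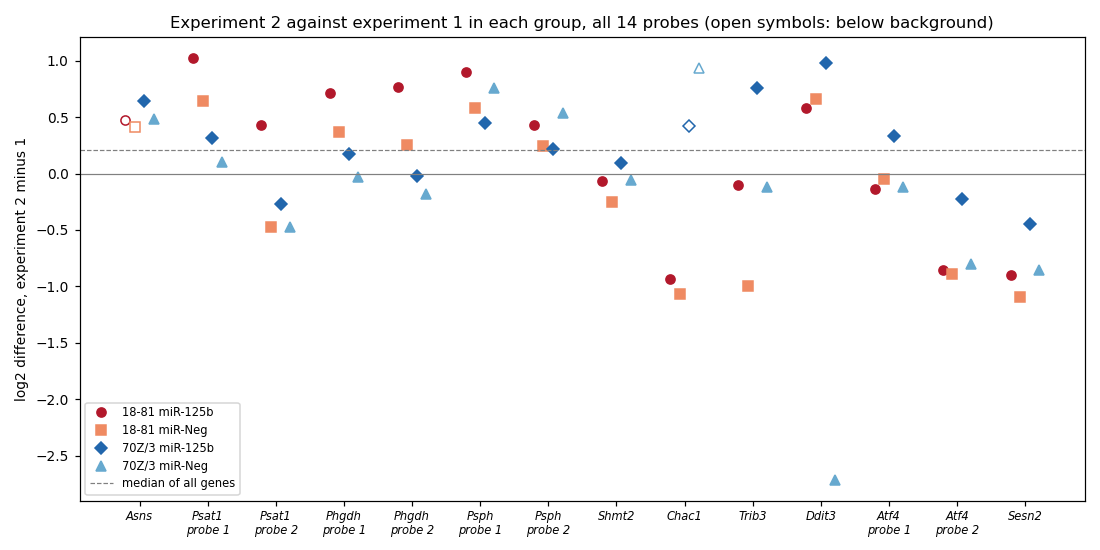
Difference between experiment 2 and experiment 1 (vertical axis, log2) for each of the 14 probes in each of the 4 groups; open symbols mark probes below background in that line, and the dashed line is the median of all genes, 0.21. Sesn2 lies between −0.45 and −1.09 in all groups, and the probe pairs of Atf4 and Psat1 differ from each other.

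The probes of a gene did not always agree in this contrast. The second probe of Atf4, 1263 bases nearer the 5′ end, was at −0.69 ± 0.16 (limma over probes, adjusted p = 0.0354), while the probe nearer the 3′ end was at 0.01 ± 0.14 (adjusted p = 0.978). For Psat1, the probe nearer the 3′ end was at 0.52 ± 0.18 and the other at −0.20 ± 0.19. The difference between the probes was thus 0.70 for Atf4 and 0.72 for Psat1, and it was 0.31 for Psph and 0.10 for Phgdh. In each of these genes the probe nearer the 3′ end was also the brighter one, so position and brightness cannot be told apart. These values hold for the percentile scaling. With quantile normalization the brighter probe was at −0.47 for Atf4 and at 0.06 for Psat1, and the dimmer probes are not given. Over 2702 genes with 2 tested probes at least 50 bases apart, the probe nearer the 3′ end was the higher one in experiment 2 for 62.4%, with a median difference of 0.13 and an interquartile range of −0.17 to 0.46. Between the lines the same median was 0.02, after miR-125b in '18-81' 0.00, and after miR-125b in 70Z/3 −0.07. The look at probe position was chosen after the values were seen. Asns, Shmt2, Chac1, Trib3, Ddit3 and Sesn2 have a single probe, so the part of probe position in their values was not tested.

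**Figure D5:**
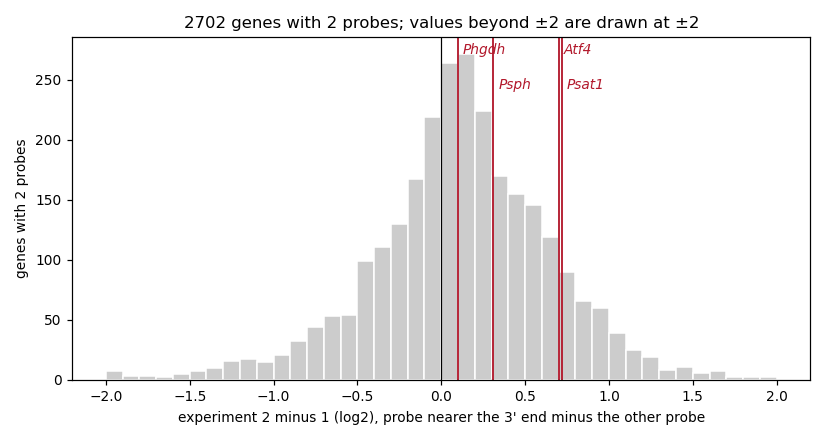
Number of genes (vertical axis) by the difference between their probe nearer the 3′ end and their other probe in experiment 2 minus experiment 1 (horizontal axis, log2), for 2702 genes with 2 probes; red lines mark the 4 genes described here. Atf4 and Psat1 lie at 0.70 and 0.72, beyond the upper quartile of 0.46, and Phgdh and Psph at 0.10 and 0.31, within the quartiles.

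Within the lines, the genes did not move as 1 block. Correlations after subtracting each line's mean describe the 8 arrays, which share 2 experiments and 2 slide rows. Psph and Psat1 had r = 0.89, Psat1 and Phgdh r = 0.80, and Psph and Sesn2 r = −0.92. Atf4 correlated with Trib3 at 0.37 and with Ddit3 at −0.15. Of 13692 named genes compared in this way over the 8 arrays, those most like Phgdh were Gm7669 (0.993), Hagh (0.988) and Fgf13 (0.982). Those most like Ddit3 were Gm3238 (0.988), Zup1 (0.987) and A930005H10Rik (0.985), and those most like Atf4 were Galr3 (0.965), Pstpip2 (0.942) and Slc46a3 (0.918). For Asns they were Gm2451 (0.996), Gm8983 (0.994) and Gm5523 (0.991), and for Chac1 Maged1 (0.994), Jmjd8 (0.987) and Lifr (0.983), both from values that are below background in 1 line. None of these is a member of the lists above.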

How the data were processed

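Cy3-labelled total RNA from 8 samples, grouped by their titles, was read on one-colour Agilent arrays of 1 slide, scanned at 1 scan time. Per the file headers, the deposited intensity values came from the authors' run of Agilent Feature Extraction 10.7.3.1, which subtracted background and detrended the signal over the slide, and gave probe positions in mm9. The deposited series table, also of intensity values, was used as an alternative, and how the authors normalized it is not stated in the labels or headers. Each slide row holds 1 replicate number and each slide column 1 group, so neither can be told apart from what it holds.

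Control spots and outlier calls (140 to 203 spots per array) were dropped, repeated spots were averaged, and each log2 value was taken relative to its array's 75th percentile of processed intensity. RefSeq for GRCm38.p6 named 26413 probes through an accession, 3859 through a symbol and 735 through a former symbol, and the other 24674 keep the name in the files. Genes with a probe well above background on both arrays of a group and a value in every group were tested (18791), by their brightest probe. limma 3.58.1 in R 4.3.3 fitted the means of the 4 groups to all arrays without a block, two-sided, with Benjamini-Hochberg adjustment at 0.05. The experiment contrast added the replicate number as a term. Replicate numbers were taken as pairs because the design text speaks of independent experiments and same-numbered arrays deviated together (r from 0.37 to 0.65 in 6 group pairs). The labels name no separate cultures beyond these experiments.

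The genes, the lists, the motif and the alternatives were chosen with earlier results of these data known. Named genes were all 10 genes, the 3 largest non-overlapping differences per direction and list between the lines, the 2 smallest p-values under 0.05 per list in the other contrasts, and the 3 genes most like Asns, Phgdh, Chac1, Ddit3 and Atf4. On simulated data over 18791 genes the line contrast recovered 11.9, 61.2 and 87.9% of changes of 1, 2 and 3 log2 units. The duplex contrast in 70Z/3 recovered 0, 37.3 and 66.7%, and the experiment contrast 4.5, 50.7 and 80.3%. The simulation used the spread of the fit without a block and changed only a small part of the genes. That part was far below the shares called in the line and experiment contrasts, so these rates need not hold for them. Alternatives were other normalizations, filters and probe rules, a replicate block, and single arrays left out. 1 marker gene is not reported here.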

Additional observations from a re-analysis of the deposited data

Results flagged for a closer look

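Among the genes whose duplex effects are given above, Psph, Ero1a and Aldh18a1 moved one way in both experiments in '18-81' and the opposite way in both in 70Z/3 after miR-125b. So did 26.0% of the 14627 genes above background on all arrays. By its first probe, Psph was above 0 in both experiments in '18-81' (0.02 and 0.34) and below 0 in both in 70Z/3 (−0.17 and −0.48), so the effect in '18-81' minus that in 70Z/3 was 0.5. Its second probe did not share this: it was at −0.00 and 0.19 in '18-81' and at 0.30 and −0.02 in 70Z/3, a difference of effects of −0.05. For Ero1a this difference was −2.22 and for Aldh18a1 −1.1, each lower with miR-125b in both experiments in '18-81' and higher in both in 70Z/3. In 70Z/3 the lowest value of Ero1a and of Aldh18a1 was on the dimmest array, replicate 2 with miR-Neg. Their opposite directions drew attention to them, and are not themselves a test. limma's test of the difference of effects, fitted to all genes, called 0 of 18791 genes at an adjusted p under 0.05 and 606 at an unadjusted p under 0.05, with an adjusted p = 0.94 for Psph.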

How the results depend on the processing

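The '18-81' against 70Z/3 contrast called 5962 of 18791 genes, 4565 to 5710 with single arrays left out, and 9031 under the replicate block. The duplex contrast in 70Z/3 called 0 genes, 1 with normexp background correction and 0 to 2 with single arrays left out. That in '18-81' called 0 genes and 0 to 9 with single arrays left out, and the difference of effects 0 and 0 to 5. The replicate block changed no call of these 3 contrasts. It did raise the number of genes at an unadjusted p under 0.05 (limma), from 1104 to 3922 for the duplex contrast in 70Z/3. In '18-81' that number rose from 230 to 531, and for the difference of effects from 606 to 2424. Experiment 2 against experiment 1 called 4893 genes, 7412 with normexp, 1977 after quantile normalization, 1987 from the series table and 12436 of 36314 without the intensity filter. It called 0 to 3253 with single arrays left out, and 0 within '18-81' or within 70Z/3 alone, where 2 arrays per experiment remain (6254 and 5119 genes at an unadjusted p under 0.05).

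For the 10 genes, 175 of 180 alternative values between the lines stayed within the spread of their replicates and 5 moved, among them Asns (−11.06) and Chac1 (8.15) with normexp, which lifts dim values, and Atf4 in the other 3 (−0.21 to 0.07). In the experiment contrast 30 of 180 lost the threshold and 1 gained it. In the duplex contrasts 8 of 144 moved in '18-81' and 12 of 144 in 70Z/3, and 0 were called. The cause of these changes was not tested. Signal over background limits Asns in '18-81' and Chac1 in 70Z/3, which have bounds only, and the normexp differences of both genes fall short of those bounds.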
